A study of Mus musculus with 8 samples.

Results

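The 10 genes described here encode enzymes that turn arachidonic acid into hydroxylated fatty acids, leukotrienes and prostaglandins: Alox15, Alox12, Alox5, Alox5ap, Ltc4s, Lta4h, Ptgs1, Ptgs2, Ptges and Hpgds. They were taken by gene symbol from 55335 genes in the transcript tables, as enzymes of this pathway, when CD36_KO to WT ratios of these libraries were already known, so their ratios are given as a description. The RNA was that of cells sorted as CD8 T cells, 14 days after B16 melanoma cells were injected intravenously. The CD36_KO library came from Cd36 knockout mice and the WT library from wild-type C57BL/6 mice. The strain background of both groups is labelled C57BL/6. Cd36 encodes a surface receptor that takes up fatty acids and oxidised lipoproteins. The sources used here do not say how the knockout was made, in which cells the gene is missing or how many animals gave RNA. The titles give 4 lanes of 1 library per genotype, so no difference between the genotypes has a replicate check. Intervals are exact 95% counting intervals. They cover counting error only and leave out variation between animals. They can be too narrow even for counting error, since reads that carry no molecular identifiers can repeat a molecule.

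Arachidonic acid is held in membrane phospholipids and is freed by phospholipases A2. Lipoxygenases add oxygen to it directly, and a helper protein in the nuclear membrane passes it to the enzyme that starts leukotriene synthesis. Cyclooxygenases convert it to an unstable endoperoxide that terminal synthases turn into the separate prostaglandins and thromboxane. In tumours many cell types other than T cells are known to make these products, among them macrophages, neutrophils, mast cells, platelets and stromal cells.

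The lanes held 2569962 to 2611740 estimated counts in the CD36_KO library and 2497048 to 2538468 in the WT library. Cd36 itself had 77 to 107 counts per lane in the CD36_KO library and 287 to 307 in the WT library, a log2 ratio of -1.98 (-2.15 to -1.80), and which of its exons the knockout removes was not stated. The CD8 T cell marker Cd8a averaged 59.0 TPM (transcript abundance per length, scaled to a fixed sum) in the CD36_KO library and 10.6 TPM in the WT library. Lyz2, a lysozyme gene listed among the macrophage and monocyte markers, averaged 1520 TPM in the CD36_KO library and 1316 TPM in the WT library. Dct, a melanin synthesis gene, averaged 104 TPM in the CD36_KO library and 324 TPM in the WT library. The data thus go against the label as the only source of this RNA. The summed level of 16 macrophage and monocyte markers exceeded that of 12 CD8 T cell markers in every lane of both libraries, and that of 11 melanoma markers did so in the WT lanes. Without Lyz2, a sum added after the data were seen, the other 15 macrophage markers came to 753.0 to 786.1 TPM in the CD36_KO lanes, against 714 to 783 TPM for the CD8 T cell markers there, and to 722.8 to 764.0 TPM in the WT lanes, against 147 to 163 TPM. In such mixed RNA, fewer cells of a type and less RNA per cell cannot be told apart.

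Of the 10 enzyme genes, the CD36_KO library held at least 2-fold more Alox12, at least 2-fold less Alox15, Ptgs1 and Ptgs2, and 6 genes lay between. The main value is a log2 ratio of CPM (counts scaled to library size) with TMM factors, and a gene counted as 2-fold when its interval also excluded no difference. All 10 genes were measured, which means a mean of at least 5 CPM over the libraries. Alox12 was under 5 CPM in the WT library (3.19), and Ptgs2 and Ptges in the CD36_KO library (4.87 each). They were thus measured only through the library where they are higher, and genes of the lists below could also pass this way. By the same rule 6.50% of the 12177 measured genes were higher and 10.8% lower in the CD36_KO library, 17.3% in either direction. Because the genes were chosen with this contrast known, nothing is read from their count beside these shares. The median log2 ratio was -0.73 over the 10 enzyme genes and -0.13 over all measured genes. On the log2(TPM + 1) scale the medians were -0.08 and 0.37, so the enzyme median lay below the median of all genes on both scales, by 0.59 with TMM. The shift of all genes between these scales was 0.50.

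Alox15 was lower in the CD36_KO library and had the lowest log2 ratio of the 10 genes. Alox15 (ENSMUSG00000018924.6; GRCm38 chromosome 11, 70344152 to 70352031, minus strand) encodes the mouse lipoxygenase that can also oxidise fatty acids still bound in membranes, and it is known from resident peritoneal macrophages and eosinophils. Lanes 1 to 4 held 372, 332, 348 and 358 counts in the CD36_KO library, against 1087, 1012, 1080 and 1056 in the WT library. In TPM they stood at 40.2, 37.6, 37.9 and 39.2 in the CD36_KO library, against 93.0, 92.5, 96.9 and 97.0 in the WT library. Every CD36_KO lane lay far below every WT lane, and the lanes of a library were close together. The totals of 1410 counts in the CD36_KO library and 4235 in the WT library gave a log2 ratio of -1.82 (-1.91 to -1.74), so the CD36_KO library held 28.2% of the WT level (26.6% to 30.0%). With total counts alone the ratio was -1.63 and on the log2(TPM + 1) scale -1.27. Among the measured genes, 2.98% had a lower ratio than Alox15.

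Alox12 was higher in the CD36_KO library, from a low level. Alox12 (ENSMUSG00000000320.10; chromosome 11, 70241457 to 70255353, minus strand) encodes the platelet-type lipoxygenase and lies near Alox15, with 88798 bases between the genes. Lanes 1 to 4 held 30.3, 25, 34.7 and 32 counts in the CD36_KO library, against 7.33, 9.16, 10.8 and 3.10 in the WT library. In TPM the same lanes stood at 2.71, 2.18, 2.98 and 2.76 in the CD36_KO library, against 0.486, 0.726, 0.855 and 0.219 in the WT library. CD36_KO lanes all lay above WT lanes, although the WT values rest on few reads. Of the stretches of 31 bases in Alox12, 1.63% also occur in other genes, of which there were 1918. Whether reads of those genes were counted on Alox12 was not tested. The totals of 122 counts in the CD36_KO library and 30 in the WT library gave a log2 ratio of 1.79 (1.20 to 2.41), with 1.98 for total counts alone and 1.22 for log2(TPM + 1). Most of these counts fell on the transcript of 3001 bases, with 116 in the CD36_KO library and 22.2 in the WT library, and the transcript of 2314 bases had 6.08 in the CD36_KO library and 8.22 in the WT library. This division between isoforms is an estimate and less certain than the gene total. Against the all-gene median, Alox12 stood at 1.92 with TMM and 0.85 with TPM, the latter short of 2-fold.

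The start region of Alox12 is shown because no other gene of the 10 was at least 2-fold higher in CD36_KO. RefSeq sequences of 250 bases before to 50 after the start (GRCm38.p6) were matched for 8 of the 10 genes, all but Alox15 and Alox5ap. They were searched on both strands for TATAAA (the box near many start sites), GGGCGG (GC box), ACGTCA (core of the cyclic AMP response element), CACGTG (E-box), TTGCGCAA (C/EBP palindrome), AGATAA (site of GATA factors) and the STAT6 site (TTC, then any 4 bases, then GAA). The Alox12 window, chr11:70255321-70255620 on the minus strand, held GGGCGG at 3 places, which capitals mark, 55 and 22 bases before the start and at base 42 after it. Of 32851 promoter windows of the same length, 35.7% hold this motif. A match is a description of letters and not evidence of binding.
Alox12: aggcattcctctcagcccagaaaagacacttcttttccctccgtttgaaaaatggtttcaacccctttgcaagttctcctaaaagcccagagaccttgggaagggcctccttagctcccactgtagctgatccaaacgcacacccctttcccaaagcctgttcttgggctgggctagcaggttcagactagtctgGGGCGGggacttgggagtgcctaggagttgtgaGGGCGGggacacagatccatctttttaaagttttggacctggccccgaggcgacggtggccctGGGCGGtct

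Alox5 and its partner Alox5ap lay between the 2-fold limits. Alox5 (chromosome 6, 116410077 to 116461178, minus strand) encodes the lipoxygenase that makes leukotriene A4. It had 110 to 125 counts per lane in the CD36_KO library and 150 to 166 in the WT library, without overlap. The log2 ratio was -0.69 (-0.87 to -0.52). In TPM the libraries averaged 12.7 ± 2.00 in CD36_KO and 13.3 ± 1.05 in WT (SD over 4 lanes of 1 library), and the lanes overlapped. Alox5ap (chromosome 5, 149264767 to 149288153, plus strand) encodes the membrane protein that presents arachidonic acid to that enzyme. It had 216 to 230 counts per lane in the CD36_KO library and 221 to 262 in the WT library, with a log2 ratio of -0.32 (-0.46 to -0.19). The TPM averages were 76.6 ± 11.5 in the CD36_KO library and 68.1 ± 7.87 in the WT library, so the sign of the ratio turned to 0.17 on the log2(TPM + 1) scale. Against the all-gene median, Alox5ap stood at -0.19 with TMM and -0.20 with TPM. An antisense gene, Gm19719, overlaps it, and 9.45% of its stretches of 31 bases also occur there. The sources used here do not say whether the counting used strand, so reads of the pair cannot be told apart with certainty. Gm19719 had 68 counts in the CD36_KO library and 56 in the WT library.

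Both enzymes that use leukotriene A4 also lay between the limits. Ltc4s (chromosome 11, 50236461 to 50238616, minus strand) encodes the synthase that joins leukotriene A4 to glutathione. It had 46.0 to 57.0 counts per lane in the CD36_KO library and 68.3 to 88.0 in the WT library, and its log2 ratio was -0.76 (-1.02 to -0.50). The antisense gene Gm26542 overlaps Ltc4s and holds 19.5% of its stretches of 31 bases, with 76 counts in the CD36_KO library and 52 in the WT library. Lta4h (chromosome 10, 93453411 to 93484875, plus strand) encodes the hydrolase that makes the neutrophil attractant leukotriene B4. It had 174 to 192 counts per lane in the CD36_KO library and 195 to 225 in the WT library, with a log2 ratio of -0.47 (-0.62 to -0.33) and 0.19 on the log2(TPM + 1) scale. Against the all-gene median, Lta4h stood at -0.34 with TMM and -0.18 with TPM. Transcripts not annotated as protein coding took more of Lta4h in the CD36_KO library, where 79.1% of its counts were on its coding transcript, against 87.4% in the WT library. Ltc4s made up 22.5% (19.9% to 25.3%) of the summed counts of Ltc4s and Lta4h in the CD36_KO library and 26.2% (23.7% to 28.9%) in the WT library, and these intervals overlapped.

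Both cyclooxygenase genes were lower in the CD36_KO library by a similar factor. Ptgs1 (ENSMUSG00000047250.13; chromosome 2, 36230426 to 36252272, plus strand) encodes the constitutive enzyme. Its lanes held 67.4, 80.0, 77.0 and 100.4 counts in the CD36_KO library, against 171, 194, 208 and 188 in the WT library. In TPM they stood at 6.88, 9.75, 12.2 and 12.8 in the CD36_KO library, against 18.9, 18.0, 20.2 and 19.0 in the WT library. The lanes did not overlap on either scale, and the CD36_KO lanes spread more widely in TPM. Of the stretches of 31 bases in Ptgs1, 3.26% also occur in other genes, mostly in Gm43621, which overlaps it on the opposite strand. Gm43621 had 4 counts in the CD36_KO library and 9 in the WT library. The log2 ratio of Ptgs1 was -1.47 (-1.66 to -1.28), and -0.81 on the log2(TPM + 1) scale, which is short of 2-fold. Against the all-gene median, Ptgs1 stood at -1.33 with TMM and -1.18 with TPM.

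Ptgs2 (ENSMUSG00000032487.8; chromosome 1, 150100031 to 150108227, plus strand) encodes the inducible enzyme and was scarce. Its lanes held 14, 18, 11 and 11 counts in the CD36_KO library, against 35, 31, 31 and 32 in the WT library. The lanes were apart in counts, and the log2 ratio was -1.49 (-1.98 to -1.03). In TPM they stood at 0.788, 3.35, 1.42 and 0.626 in the CD36_KO library, against 1.53, 4.78, 1.42 and 1.497 in the WT library. On this scale the lanes of the genotypes overlapped, and the log2(TPM + 1) ratio was -0.38. Against the all-gene median, Ptgs2 stood at -1.36 with TMM and -0.74 with TPM. The highest lanes in TPM held counts on a short transcript of 358 bases, 1.73 of the 18 counts of CD36_KO lane 2 and 3.46 of the 31 counts of WT lane 2 in the authors' estimates. Those few counts came to 2.44 TPM in the CD36_KO lane and 3.48 TPM in the WT lane. CD36_KO lane 3 held 0.585 counts on it, or 0.832 TPM, and the other lanes held 0. On the transcript of 4453 bases alone, the level was 0.729 ± 0.149 TPM in the CD36_KO library and 1.44 ± 0.105 TPM in the WT library (SD over 4 lanes).

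The start regions of the cyclooxygenase pair are shown so that the pair, both lower in the CD36_KO library, can be compared. Capitals mark matches to the motifs searched. The Ptgs2 window, chr1:150099781-150100080 on the plus strand, held GGGCGG and the C/EBP palindrome TTGCGCAA 69 bases before the annotated start. It also held ACGTCA overlapping CACGTG just after that start. Positions here and for Alox12 count from the RefSeq start, which was not checked against the reads, and another start would shift them. Among all windows, 0.183% hold TTGCGCAA, 7.51% ACGTCA and 7.15% CACGTG. The Ptgs1 window, chr2:36230176-36230475 on the plus strand, held 0 of the 7 motifs. Its GC content was 50.7%, and that of the Ptgs2 window 59.3%.
Ptgs2: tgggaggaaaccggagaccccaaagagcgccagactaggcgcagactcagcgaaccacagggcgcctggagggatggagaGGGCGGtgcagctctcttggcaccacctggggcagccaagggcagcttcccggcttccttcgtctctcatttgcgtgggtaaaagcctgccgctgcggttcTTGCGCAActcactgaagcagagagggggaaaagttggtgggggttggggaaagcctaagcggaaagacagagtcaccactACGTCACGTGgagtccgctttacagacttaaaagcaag
Ptgs1: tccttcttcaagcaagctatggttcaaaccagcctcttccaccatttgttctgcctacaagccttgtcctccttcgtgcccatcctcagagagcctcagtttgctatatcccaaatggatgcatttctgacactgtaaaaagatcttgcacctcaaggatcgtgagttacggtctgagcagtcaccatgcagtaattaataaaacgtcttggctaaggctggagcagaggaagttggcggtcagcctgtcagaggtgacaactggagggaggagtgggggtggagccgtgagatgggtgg

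The terminal prostaglandin synthases among the 10 genes lay between the limits. Ptges (chromosome 2, 30889471 to 30929863, minus strand) encodes the inducible microsomal synthase of prostaglandin E2. It had 10 to 19 counts per lane in the CD36_KO library and 13 to 22.8 in the WT library, which overlapped, with a log2 ratio of -0.63 (-1.17 to -0.10). Hpgds (chromosome 6, 65117293 to 65144908, minus strand) encodes the synthase of prostaglandin D2 known from mast cells and other blood cells. It had 34.2 to 42.7 counts per lane in the CD36_KO library and 48.4 to 66.9 in the WT library, with a log2 ratio of -0.85 (-1.15 to -0.56). In TPM the averages of both were close between the libraries, on a scale where the all-gene median was 0.37. Against the all-gene median, Ptges stood at -0.50 with TMM and -0.46 with TPM, and Hpgds at -0.72 with TMM and -0.41 with TPM. Ptges averaged 1.64 ± 0.596 in the CD36_KO library and 1.82 ± 0.690 in the WT library, and Hpgds 6.88 ± 3.59 in the CD36_KO library and 7.13 ± 1.46 in the WT library (SD over 4 lanes). Only 57.4% of the Hpgds counts in the CD36_KO library and 62.0% in the WT library fell on its coding transcript, the rest on transcripts that retain an intron. Of the stretches of 31 bases in Hpgds, 2.62% also occur in other genes, of which there were 1264.

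**Figure D1:**
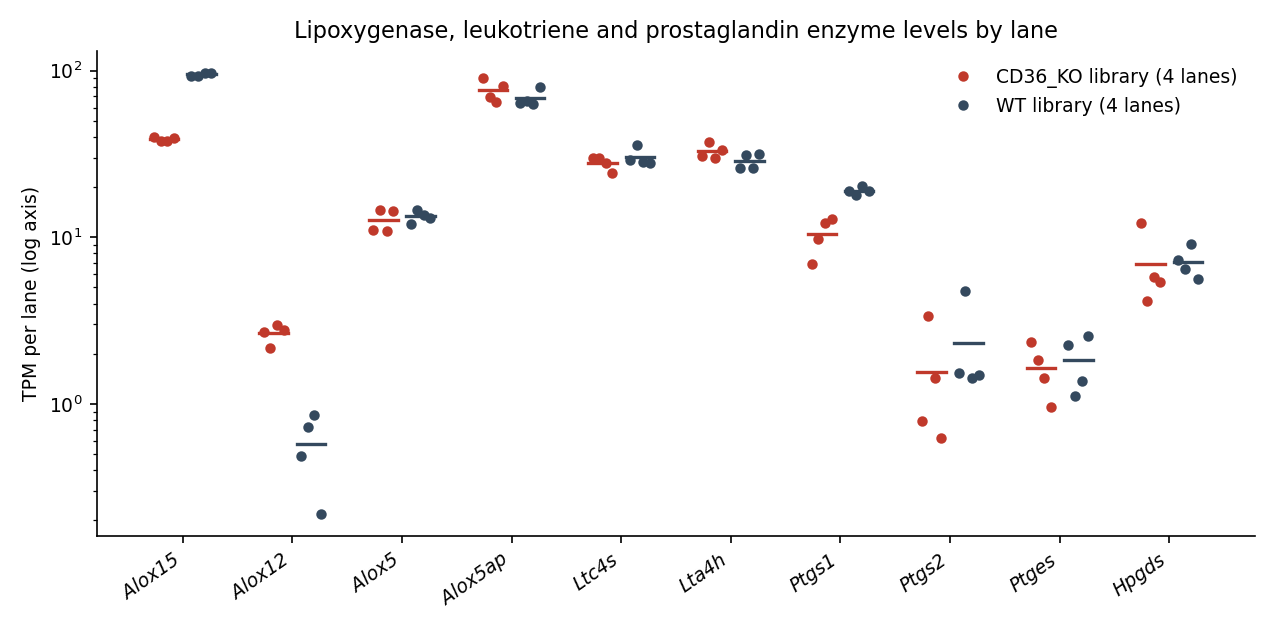
Level of the 10 enzyme genes in TPM on a log axis, with 1 point per lane (red, CD36_KO library; dark blue, WT library) and a line at the mean of the 4 lanes. Alox15 and Ptgs1 are lower and Alox12 is higher in every CD36_KO lane than in every WT lane, and the other 7 genes overlap.

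In CPM of each lane, without further scaling, 1 of the 10 genes was higher in all CD36_KO lanes than in any WT lane, 7 were lower and 2 overlapped, Alox5ap and Ptges. Such lane sets did not overlap for 29.0% of all measured genes in the higher direction, for 23.6% in the lower and for 52.6% in either. In TPM, 1 gene was higher without overlap, 2 were lower and 7 overlapped, beside 40.8% and 8.70% of all measured genes, or 49.5% in either direction. Lanes repeat 1 library, so a gap between the lanes of the genotypes says nothing of variation between animals.

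**Figure D2:**
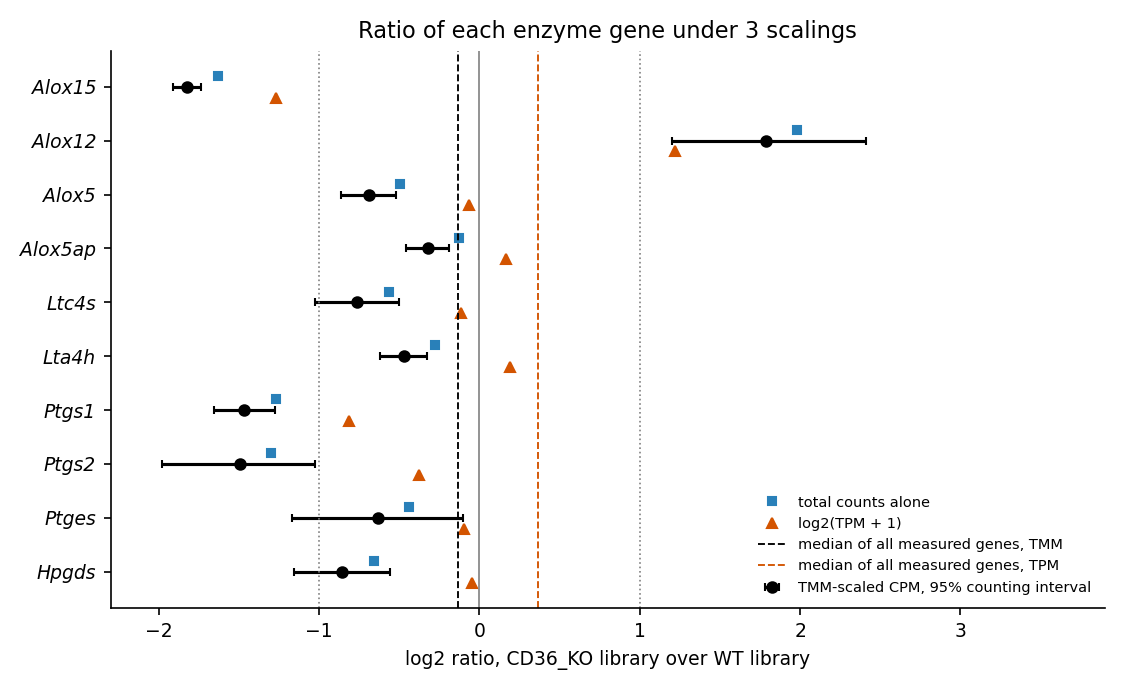
Log2 ratio of the CD36_KO over the WT library for each enzyme gene, with TMM scaling and its 95% counting interval (black), with total counts alone (blue squares) and as log2(TPM + 1) (orange triangles). Dashed lines give the all-gene median with TMM (-0.13) and TPM (0.37), and dotted lines the 2-fold limits. Alox15 and Alox12 lie past these limits in all 3 scalings, although Alox12 stood at 0.85 against the TPM median.

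The order of the levels per length differed between the libraries at both ends. In the CD36_KO library Alox5ap was highest (76.6 ± 11.5 TPM), followed by Alox15 (38.7 ± 1.21), Lta4h (32.9 ± 3.21) and Ltc4s (27.9 ± 2.72), where the lanes of Lta4h and Ltc4s overlapped. Alox5 (12.7 ± 2.00) and Ptgs1 (10.4 ± 2.69) overlapped, and both overlapped Hpgds (6.88 ± 3.59). Alox12 (2.66 ± 0.342), Ptges and Ptgs2 were lowest, with overlapping lanes. In the WT library Alox15 came first (94.9 ± 2.44 TPM), above all lanes of Alox5ap (68.1 ± 7.87). Ltc4s (30.4 ± 3.70) and Lta4h (28.7 ± 2.92) overlapped, Ptgs1 (19.0 ± 0.896) lay above Alox5 (13.3 ± 1.05), and Alox12 was last (0.571 ± 0.280). All errors are SD over 4 lanes of 1 library. Alox15 was 3.04 times the level of Alox5 in the CD36_KO library and 7.12 times in the WT library. Summed over the leukotriene genes Alox5, Alox5ap, Ltc4s and Lta4h, the level was 133.9 to 162.8 TPM in the CD36_KO lanes and 131.2 to 152.3 TPM in the WT lanes, which overlapped. Over the prostaglandin genes Ptgs1, Ptgs2, Ptges and Hpgds it was 20.5 ± 1.34 TPM in the CD36_KO library and 30.3 ± 1.39 TPM in the WT library.

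Shares of counts within a gene family do not depend on how libraries are scaled, although they are not set per length. Of the summed counts of the 3 lipoxygenase genes, Alox15 made up 70.5% (68.4% to 72.5%) in the CD36_KO library and 86.3% (85.3% to 87.3%) in the WT library. Alox5 made up 23.4% (21.6% to 25.4%) in the CD36_KO library and 13.1% (12.2% to 14.1%) in the WT library, and Alox12 6.10% (5.09% to 7.24%) in the CD36_KO library and 0.611% (0.413% to 0.872%) in the WT library. The intervals of the libraries were apart for each of these genes. Of the cyclooxygenase counts, Ptgs1 made up 85.8% (81.8% to 89.1%) in the CD36_KO library and 85.5% (83.0% to 87.8%) in the WT library, with overlapping intervals. Hpgds made up 74.3% (67.8% to 80.1%) of the summed counts of Hpgds and Ptges in the CD36_KO library and 77.1% (72.0% to 81.7%) in the WT library, which also overlapped.

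**Figure D3:**
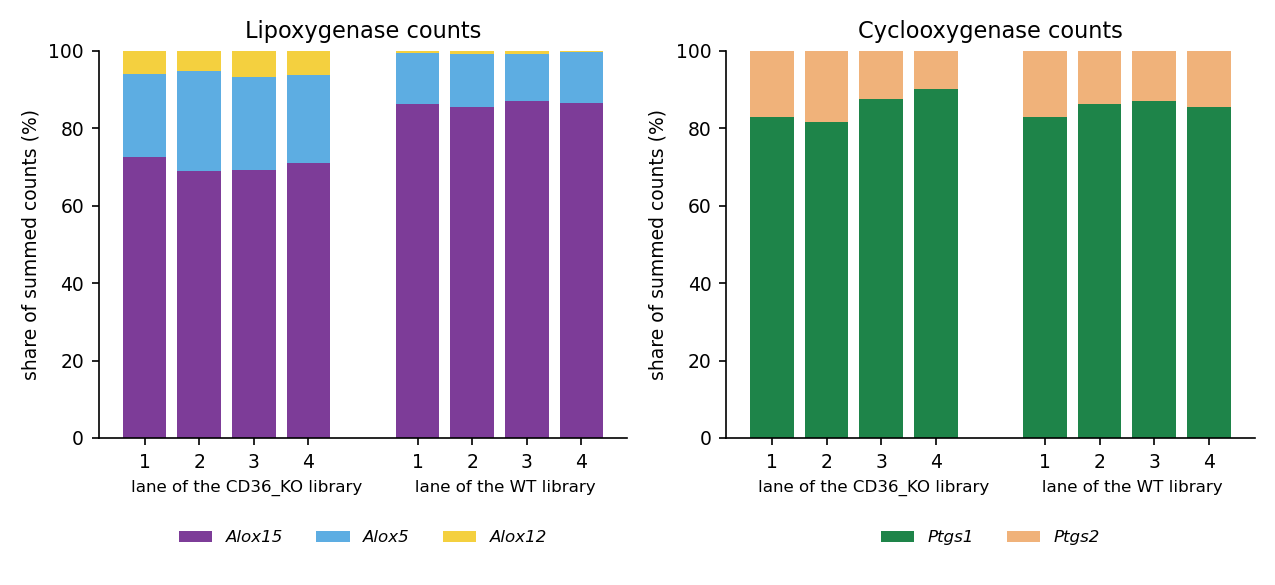
Share of the summed counts in each lane, in percent, for the lipoxygenase genes Alox15, Alox5 and Alox12 (left panel) and the cyclooxygenase genes Ptgs1 and Ptgs2 (right panel), with CD36_KO lanes left of WT lanes. The Alox15 share is 68.9% to 72.6% in the CD36_KO lanes and 85.5% to 87.0% in the WT lanes, while the Ptgs1 shares of the libraries overlap.

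Around these enzymes, 4 genes that free or reacylate arachidonic acid and 2 terminal prostanoid synthases were at least 2-fold lower in the CD36_KO library, while the prostaglandin dehydrogenase Hpgd and the leukotriene genes Mgst2 and Ggt1 were higher. Of 68 other genes listed for the pathway, 45 were measured, of which 5 were at least 2-fold higher, 7 lower and 33 between, or 11.1% and 15.6% beside 6.50% and 10.8% of all measured genes. Their median log2 ratio was -0.34, which is -0.21 relative to all measured genes. Counts for each pathway group and cell type list below stand beside the same shares, 6.50% higher and 10.8% lower. Each pathway group has at most 11 measured genes. The list was written with results of these libraries known. Among the called genes, Tbxa2r (3.61) and Ggt1 (3.51) were under 5 CPM in the WT library. Pla2g2e (1.62) and Pla2g12a (4.42) were under 5 CPM in the CD36_KO library. These genes were measured only through the library where they are higher. With total counts alone 3 were lower, Pla2g2e, Ptgds and Ptgis, and without WT lane 2 the count was also 3.

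Of 11 measured genes of arachidonate release and reacylation, 4 were lower, 0 higher and 7 between. Pla2g2e, a secreted phospholipase A2, had 18 counts in the CD36_KO library and 79 in the WT library (log2 ratio -2.37, -3.20 to -1.62). The other 3 lay close to the limit. They were Lpcat2 (-1.07), which also makes platelet-activating factor, and the phospholipase genes Pla2g12a (-1.02) and Pla2g6 (-1.005). In TPM Pla2g6 stood at 4.76 in the CD36_KO library and 4.49 in the WT library. Against the all-gene median, Pla2g6 stood at -0.87 with TMM and -0.30 with TPM. Pla2g4a, the cytosolic phospholipase that frees arachidonic acid after activation, had 155 counts in the CD36_KO library and 243 in the WT library (-0.89). Pla2g7, which degrades platelet-activating factor and was the most abundant of these genes, had 471 in the CD36_KO library and 338 in the WT library (0.24).

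Of 8 other terminal prostanoid synthases, 2 were lower, 0 higher and 6 between. Ptgds, the lipocalin-type prostaglandin D synthase, had 253 counts in the CD36_KO library and 906 in the WT library (-2.08, -2.29 to -1.88). Ptgis, the prostacyclin synthase, had 196 in the CD36_KO library and 681 in the WT library (-2.04, -2.27 to -1.80). The thromboxane synthase gene Tbxas1 stood at -0.54. On the log2(TPM + 1) scale Ptgds and Ptgis stayed past the limit, at -1.42 and -1.27. Beside them, all 11 melanoma markers were lower (median -2.27), as were 6 of 9 measured fibroblast markers (median -1.32).

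Of 5 measured genes of prostanoid transport and breakdown, 1 was higher and 4 were between. Hpgd, the dehydrogenase that inactivates prostaglandins, had 403 counts in the CD36_KO library and 146 in the WT library (1.23, 0.95 to 1.51). Among 6 measured prostanoid receptors, counting the nuclear receptor gene Pparg, 1 was higher, the thromboxane receptor gene Tbxa2r, with 96 counts in the CD36_KO library and 34 in the WT library (1.26, 0.68 to 1.87). Pparg had 208 counts in the CD36_KO library and 207 in the WT library (-0.23). The prostaglandin E2 receptor genes Ptger2 (0.12) and Ptger4 (-0.02) lay near the median of all genes.

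Of 7 measured genes of leukotriene conversion, export and breakdown, 2 were higher and 5 between. Mgst2, a microsomal transferase that can also join leukotriene A4 to glutathione, had 203 counts in the CD36_KO library and 55 in the WT library (1.65, 1.21 to 2.10), beside -0.76 for Ltc4s. Ggt1, which trims the glutathione part, had 86 in the CD36_KO library and 33 in the WT library (1.14, 0.55 to 1.77). Abcc1, the exporter of leukotriene C4, stood at -0.48. Of 4 measured leukotriene and lipoxin receptor genes, Gpr18, reported as a resolvin receptor, was higher (286 counts in the CD36_KO library and 115 in the WT library, 1.08, 0.76 to 1.40), and Cmklr1, the most abundant, lay between (-0.84). Both leukotriene B4 receptor genes were under 5 CPM. Of 4 genes for enzymes that reduce lipid peroxides or their partners, Pebp1, a binding partner of Alox15, was lower (-1.03, -1.19 to -0.86), and Gpx1, the most abundant, lay between (-0.43). Of the 4 other lipoxygenase genes, Alox8, Alox12b, Alox12e and Aloxe3, 0 were measured. Aloxe3 had 34 counts in the CD36_KO library and 40 in the WT library, and Alox12b 0 in both.

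**Figure D4:**
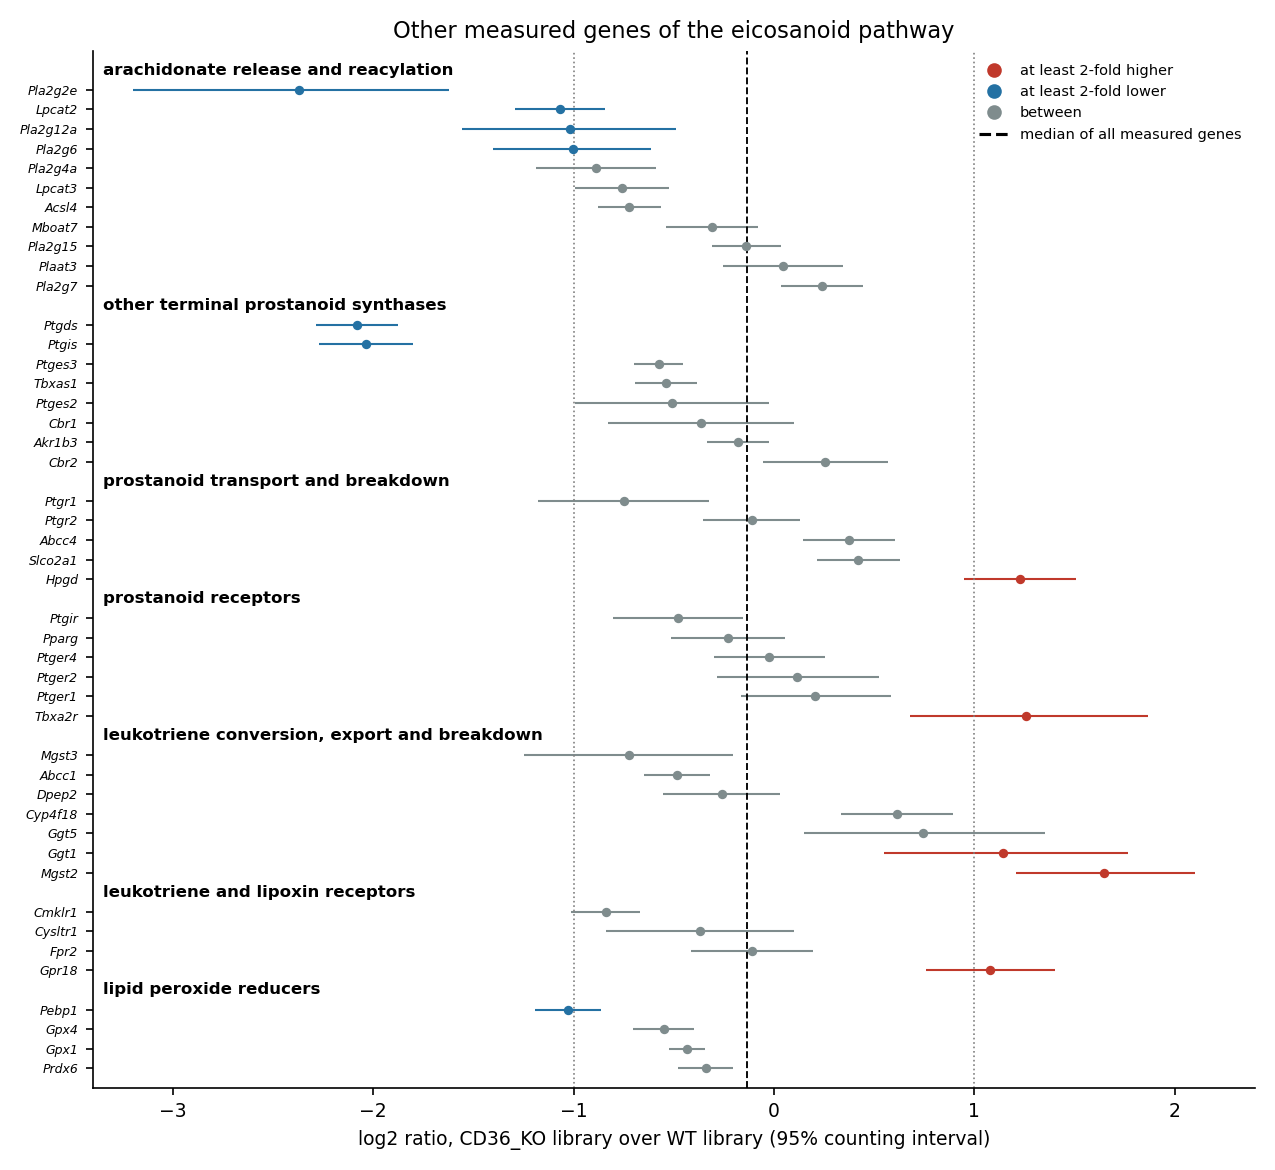
Log2 ratio of the CD36_KO over the WT library with its 95% counting interval for 45 other measured genes of the eicosanoid pathway, grouped by role (red, at least 2-fold higher; blue, at least 2-fold lower; grey, between; dashed line, median of all measured genes at -0.13). The lower genes are in the groups for arachidonate release, terminal synthases and peroxide reducers, and the higher genes in those for breakdown, conversion and receptors. Of the lower genes, Lpcat2 (-1.07), Pebp1 (-1.03), Pla2g12a (-1.02) and Pla2g6 (-1.005) lie close to the limit.

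Markers of other cell types moved beside the enzyme genes, and their part in these ratios was not tested. Of 16 macrophage and monocyte markers, 4 were at least 2-fold lower, among them Adgre1 and Cd14, 0 were higher and 12 between, with a median of -0.39. Their summed level was 2257 to 2315 TPM in the CD36_KO lanes and 1984 to 2104 TPM in the WT lanes, of which Lyz2 averaged 1520 TPM in the CD36_KO library and 1316 TPM in the WT library. On the log2(TPM + 1) scale the list's median was 0.10, below the median of 0.37 over all measured genes. Relative to the macrophage median, Alox15 stood at -1.43, Ptgs1 at -1.08, Ptgs2 at -1.10, Alox5 at -0.30, Lta4h at -0.08 and Alox5ap at 0.07. On the TPM scale Alox15 was 0.0255 of the level of Lyz2 in the CD36_KO library and 0.0721 in the WT library. Of 5 markers of serous cavity macrophages, a population known for Alox15, 1 was lower and 4 lay between, and their summed level was 85.2 to 90.04 TPM in the CD36_KO lanes and 76.4 to 90.3 TPM in the WT lanes. The lower one was Gata6, their defining transcription factor, with 95 counts in the CD36_KO library and 337 in the WT library (-2.06), and the most abundant was Prg4 (-0.75). Of 11 measured alveolar macrophage markers, Marco was lower (-1.49) and 10 lay between (median 0.13), and the 12 listed summed to 1422 to 1503 TPM in the CD36_KO lanes and 623 to 658 TPM in the WT lanes. The most abundant, Chil3, averaged 1059 TPM in the CD36_KO library and 396 TPM in the WT library (log2 ratio 0.86), and Ear2 149 TPM in the CD36_KO library and 54.3 TPM in the WT library (0.84). Of 6 eosinophil markers 0 were measured, at a summed 2.25 to 3.74 TPM in the CD36_KO lanes and 1.97 to 2.70 TPM in the WT lanes. The granule gene Epx had 1 count in the CD36_KO library and 2 in the WT library, and Prg3 had 0 in both. Among the others, the receptor genes Il5ra and Ccr3 were higher, both with a mean under 5 CPM over the libraries. Il5ra had 65 counts in the CD36_KO library and 18 in the WT library (1.61). Ccr3 had 29 in the CD36_KO library and 8 in the WT library (1.62). Ear6 had 10 counts in the CD36_KO library and 21 in the WT library, and Prg2 had 0 in the CD36_KO library and 1 in the WT library.

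All 11 melanoma markers were lower (median -2.27), at 343 to 356 TPM in the CD36_KO lanes and 1049 to 1125 TPM in the WT lanes. Of 9 measured fibroblast markers, 6 were lower, 1 higher and 2 between (median -1.32), with Col3a1 the most abundant (-2.20) and Pdgfrb (0.75) and Acta2 (-0.36) between. The list summed to 63.9 to 73.1 TPM in the CD36_KO lanes and 135.4 to 150.3 TPM in the WT lanes. The higher one was Postn, with 570 counts in the CD36_KO library and 119 in the WT library (2.02).

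Beside Alox12, the platelet list had 3 of 4 measured genes higher, Itga2b, Ppbp and Tubb1, and Pf4 lower (-1.01). The 12 genes summed to 66.4 to 91.0 TPM in the CD36_KO lanes and 44.4 to 56.0 TPM in the WT lanes. Of them, 8 had a mean under 5 CPM over the libraries. Other lists were higher too. All 12 CD8 T cell genes were higher (median 1.84, most abundant Trbc2 at 1.95), at 714 to 783 TPM in the CD36_KO lanes and 147 to 163 TPM in the WT lanes. Of 8 measured neutrophil genes, 7 were higher and 1 lay between (median 1.83, most abundant S100a8 at 1.87), and the 11 listed summed to 301.3 to 338.8 TPM in the CD36_KO lanes and 51.5 to 58.6 TPM in the WT lanes. On the TPM scale the ratio of Alox12 to Cd8a was 0.0450 in the CD36_KO library and 0.0540 in the WT library. Of 8 keratinocyte genes, a cell type also known for lipoxygenases, 2 were measured, Sfn (1.13) and Perp (-0.14), and Trp63 had 0 counts in both libraries. Of 12 mast cell and basophil genes, a source known for Hpgds and Ltc4s, 2 were measured, Hdc (-0.62) and Kit (-0.10). The granule protease genes Mcpt4 and Tpsab1 had 0 counts in both libraries, and the list summed to 9.62 to 14.3 TPM in the CD36_KO lanes and 6.81 to 11.6 TPM in the WT lanes.

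**Figure D5:**
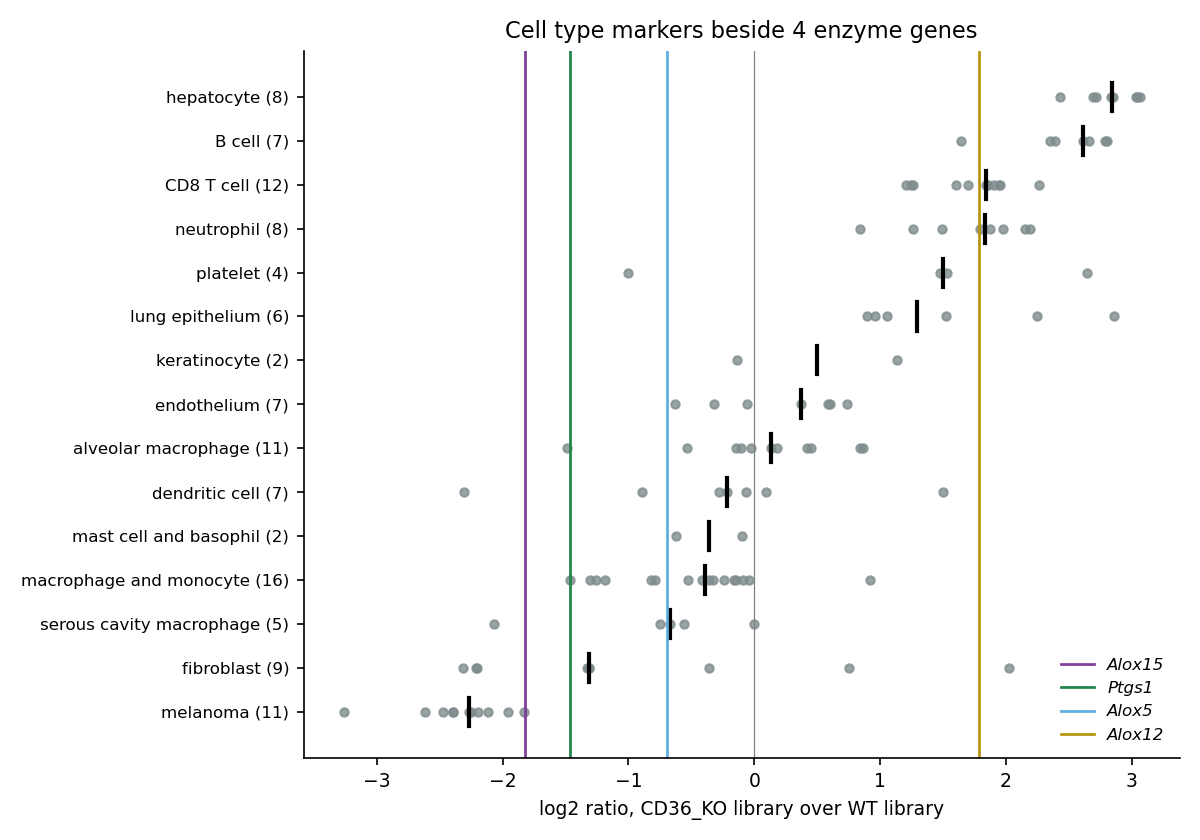
Log2 ratio of the CD36_KO over the WT library for each measured marker gene (grey points, number measured in brackets) with the list median (black bar), and vertical lines at Alox15 (-1.82), Ptgs1 (-1.47), Alox5 (-0.69) and Alox12 (1.79). Alox15 lies between the melanoma and fibroblast medians, and Alox12 beside the CD8 T cell and neutrophil medians.

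The remaining lists were dendritic cell (median -0.22, most abundant Ccr7 at 1.5006), endothelium (0.37, Pecam1 at 0.73), lung epithelium (1.29, Scgb1a1 at 2.24), B cell (2.61, Ighm at 1.64) and hepatocyte genes (2.84, Alb at 2.72). All 7 B cell genes, all 8 hepatocyte genes and 4 of 6 measured lung epithelium genes were at least 2-fold higher in CD36_KO, as Alox12 was.

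Genes with ratios nearest to Alox15 and Alox12 were listed as a description over 2 libraries. Among 576 protein-coding genes within 2-fold of the mean CPM of Alox15, the 5 nearest ratios were those of Cd5l (-1.83), a secreted macrophage protein, Eps8 (-1.84), an actin regulator, and the glycolysis genes Pgk1 (-1.80), Ldha (-1.78) and Pfkl (-1.91). Cd5l had 1237 counts in the CD36_KO library and 3738 in the WT library. For Alox12, among 3172 such genes, they were Camk4 (1.79), Prf1 (1.79), Cpm (1.80), Treml4 (1.81) and Klrc1 (1.76). The Alox12 interval (1.20 to 2.41) is far wider than the gaps between these ratios, so which genes are nearest is uncertain. Camk4, Cpm and Klrc1, with 38, 43 and 42 counts in the WT library, were under 5 CPM there. They were measured only through the CD36_KO library.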

How the data were processed

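RNA of cells sorted as CD8 T cells was measured in 8 lanes, 4 of 1 library per genotype. The submitters' processing notes name kallisto, DESeq2 and GRCm38.p6, and no versions of the tools. Estimated counts were deposited as kallisto writes them, per the file headers, and need not be whole. The deposited TPM values, per the file headers, are scaled for effective length within a lane. Division of reads among isoforms moves the TPM of short transcripts most.

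Estimated counts of 142351 transcripts were summed per gene and over lanes and rounded. TMM factors (1.07 for CD36_KO, 0.934 for WT) came from edgeR 4.0.16 in R 4.3.3, and no test was run, since 1 library per genotype allows none. Log2 ratios carry exact Clopper-Pearson 95% intervals (SciPy 1.17.1). A gene was measured at a mean of at least 5 CPM and called at 2-fold when its interval excluded no difference. The calculation was tested on simulated counts. Lanes of a library differed by a chi-square per degree of freedom of 1.25 in CD36_KO and 1.29 in WT, against 19.7 between lanes of the genotypes.

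The named genes were the 10 enzymes, every called gene and the most abundant measured gene of each pathway list, the most abundant gene of each marker list with Lyz2, Cd8a and Dct, and the 5 nearest ratios to Alox15 and to Alox12. Further marker and pathway genes in the text were named after their values were seen. Members and lists were chosen with earlier results of these data known. Gene coordinates are from GENCODE M21 on GRCm38 and start regions from RefSeq on GRCm38.p6. 2 listed symbols, Pla2g16 and Fam213b, were matched to Plaat3 and Prxl2b through RefSeq synonyms.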

Additional observations from a re-analysis of the deposited data

Results flagged for a closer look

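The 4 lanes of each library were screened for 1 lane far from the other 3 in the TPM of each enzyme gene, and 3 of 20 sets of lanes held one, where chance gives about 1 in 20 sets. Alox5ap had 79.8 TPM in WT lane 4, against 63.0 to 65.4 TPM in the other WT lanes. Ltc4s had 35.9 TPM in WT lane 2, against 28.03 to 29.1 TPM in the others. Ptgs2 had 4.78 TPM in WT lane 2, against 1.42 to 1.53 TPM in the others, while its counts in the 4 WT lanes were 35, 31, 31 and 32. In that lane 3.46 counts were assigned to the Ptgs2 transcript of 358 bases, and 0 in the other WT lanes.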

How the results depend on the processing

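The count of enzyme genes at least 2-fold higher (1) and lower (3) was the same with total counts alone, DESeq2 size factors, no filter on low values, coding transcripts only, the macrophage median set to 0 and each lane left out. With a mean of at least 20 CPM, 6 genes remained, of which 0 were higher and 2 lower. On the TPM scale 1 was lower, Alox15, with an added 1 or 0.1, and 1 was higher, Alox12. Ptgs1 (-0.81 and -0.86) and Ptgs2 (-0.38 and -0.55) lay between. For log2(TPM + 1), without an interval, 12.3% of the 12177 measured genes were higher and 2.70% lower. Shares over all genes were not computed for the other recomputed settings. The limit was the same on each scale, while the all-gene median was 0.37 for log2(TPM + 1) and -0.13 with TMM. Against that TPM median, Alox15 stood at -1.64, Ptgs1 at -1.18, Ptgs2 at -0.74 and Alox12 at 0.85. The median of the enzyme genes was -0.079 and -0.094 in TPM with an added 1 and 0.1. It was -0.34 relative to macrophage markers, against -0.73, and ran from -0.79 to -0.63 without single lanes. Of 156 recomputed ratios of single genes, 125 lay inside the counting interval of the main ratio and 31 outside, and 5 differed in sign, all of Alox5ap or Lta4h. The 7 lower pathway genes became 3 with total counts alone, 3 and 4 on the TPM scales, 4 at 20 CPM, 3 relative to macrophage markers and 3 to 7 without single lanes. The lowest of these came without WT lane 2, and the count was 4 without WT lane 1, WT lane 4 or CD36_KO lane 1. The 5 higher ones became 1 at 20 CPM and were 4 to 5 without single lanes. The Alox15 share in the CD36_KO library was 72.7% over coding transcripts, and 69.7% to 71.0% without single lanes, and the Ptgs1 share in the WT library was 89.2% by TPM. The causes were not tested. Depth limits Alox12, Ptgs2 and Ptges most, with 30 to 129 counts in the WT library. No paired analysis was possible because the shared numbers are lanes of single libraries and no test was run.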
